A study of Mus musculus with 6 samples.

Results

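The genes described here are 9 mouse genes of antigen presentation, namely the major histocompatibility complex (MHC) genes H2-T23, H2-Bl, H2-Ab1, H2-K1 and H2-D1, the light chain gene B2m, the peptide transporter genes Tap1 and Tap2, and the tapasin gene Tapbp. All probes that the platform annotation gives to these symbols were taken, which were 12 probes of 7 genes out of 13778 probes of 9166 named genes. No probe was named Tap1 or Tap2 in that annotation, and both genes are not analysed here. The set was chosen because several of its H2 genes were higher in the comparison reported below, so for its members that comparison is a description and no p-value is given for them. Levels were measured in total RNA of mouse embryonic stem (ES) cells of the genetic background 129P2, grown with serum. One group of 3 arrays carried Prdm14 overexpression, and the other group of 3 arrays carried a control vector. Prdm14 encodes a PR domain protein of pluripotent cells and primordial germ cells. The overexpressing lines were made from a Rex1-GFPd2 reporter ES line. The labels place the replicates of a group at consecutive passages and name no separate lines or clones, so the spread is that between passages, and a difference between the lines cannot be told apart from an effect of Prdm14.

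Classical MHC class I molecules, encoded in mouse by genes such as H2-K1 and H2-D1, display peptides of cytosolic proteins to cytotoxic T cells and need the light chain beta-2-microglobulin (B2m) to reach the cell surface. The peptides are cut by the proteasome and pumped into the endoplasmic reticulum by the transporter formed by Tap1 and Tap2, to which tapasin (Tapbp) tethers empty class I molecules. H2-T23 encodes the non-classical class I molecule Qa-1, which presents signal peptides of other class I molecules to receptors of natural killer cells. H2-Bl is a class I gene named after the blastocyst, and RefSeq lists it as a transcribed pseudogene. H2-Ab1 encodes the beta chain of an MHC class II molecule, a type made mainly by professional antigen-presenting cells. Mouse ES cells are known for low surface levels of MHC molecules.

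The stretches upstream of the class I genes H2-T23, H2-K1 and H2-D1 are printed because the first of these genes was higher in overexpressing cells whereas H2-K1 and H2-D1 lay close to control. Each is the 250 bases before a RefSeq transcript start (assembly GRCm38.p6), written in the direction of the gene, with capitals marking motif matches on either strand.
H2-T23, chr17:36032702-36032951, minus strand: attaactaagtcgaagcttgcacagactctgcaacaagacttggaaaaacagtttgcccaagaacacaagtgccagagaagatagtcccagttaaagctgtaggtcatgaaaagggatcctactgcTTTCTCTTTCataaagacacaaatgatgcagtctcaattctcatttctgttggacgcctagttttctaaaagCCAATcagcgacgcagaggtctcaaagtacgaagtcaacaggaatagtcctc
H2-K1, chr17:34000348-34000597, minus strand: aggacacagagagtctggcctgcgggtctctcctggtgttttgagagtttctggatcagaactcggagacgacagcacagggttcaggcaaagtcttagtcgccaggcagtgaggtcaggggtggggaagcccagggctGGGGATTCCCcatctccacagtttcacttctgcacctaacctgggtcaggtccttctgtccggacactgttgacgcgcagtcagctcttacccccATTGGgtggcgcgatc
H2-D1, chr17:35262844-35263093, plus strand: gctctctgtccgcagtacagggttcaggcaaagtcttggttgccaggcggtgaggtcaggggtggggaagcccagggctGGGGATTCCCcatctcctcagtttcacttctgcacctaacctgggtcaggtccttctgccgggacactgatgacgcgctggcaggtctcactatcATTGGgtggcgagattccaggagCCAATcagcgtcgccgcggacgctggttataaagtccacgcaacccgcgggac
Promoters of 6 of the 9 genes were in the RefSeq table, those of H2-T23, H2-K1, H2-D1, B2m, Tap1 and Tapbp. The Y box core CCAAT, which binds the factor NF-Y, was found in all 6, against 33.8% of 32851 promoter windows of this length. The NF-kB site of the enhancer known from classical class I genes is the run in capitals 111 to 102 bases before the start of H2-K1 and 171 to 162 bases before that of H2-D1. The same letters were found in 0.0852% of all windows and were not in the H2-T23 window. The H2-T23 and B2m windows each held the interferon-stimulated response element pattern, GAAA repeated after 2 bases of any kind, present in 2.98% of all windows. The H2-T23 match lies 124 to 115 bases before the start, on the opposite strand. The H2-K1 and H2-D1 windows held no exact match, but both contain the similar run tttcacttct, which this pattern does not count. None of the 6 windows held the gamma-activated site TTCNNNGAA (7.02% of all windows), the cyclic AMP response element TGACGTCA (1.55%) or GGTCTCTAA (0.24%), a sequence described for PRDM14 binding in human ES cells. Only these exact letters were searched, so shorter or variant forms were not counted. The run tgacg, the opening letters of the cyclic AMP response element, is in the H2-K1, H2-D1, B2m and Tap1 windows. Its share of all windows was not taken. All of these are letter matches and say nothing of binding. In a global alignment the H2-K1 and H2-D1 windows shared 170 identical bases (68.0% of the window) out of 190 aligned. H2-T23 shared 131 (52.4%) out of 212 with H2-K1 and 134 (53.6%) out of 229 with H2-D1. Bases facing a gap are not counted as aligned, and the percentages are of the whole window. Pairs that included B2m, Tap1 or Tapbp shared 50.4% to 54.8%.

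Each array held 45281 probes. Between 31.1% and 32.6% of them were above background, meaning a detection p-value under 0.01 against the negative control beads of that array. Probes above background on no array had median signals of 73.3 to 81.2 on the overexpression arrays and 59.6 to 62.8 on the control arrays, so the overexpression arrays had the brighter background. Prdm14 was higher on every overexpression array, with signals of 10751 to 14907 against 673 to 855 for its brighter probe (limma adjusted p = 1.73e-06, log2 difference 3.86). All 10 listed ES cell markers, among them Pou5f1, Sox2 and Nanog, were tested with limma, and 0 passed an adjusted p of 0.01 (3 higher and 1 lower at an unadjusted p under 0.05). Their summed normalized level was 75984 to 77167 in overexpressing and 71437 to 74354 in control cells.

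H2-T23 was higher in overexpressing cells with both of its probes. The signal of probe ILMN_2777471 was 902, 739 and 733 on overexpression arrays 1, 2 and 3 and 293, 303 and 291 on control arrays 1, 2 and 3. After background correction and quantile normalization, these became log2 values of 9.35, 9.48 and 9.32 against 8.19, 8.22 and 7.91. The groups did not overlap in either form, and control array 3 was the lowest after normalization. The log2 difference, overexpression minus control, was 1.28 ± 0.11 (SE, n = 3 per group), a 2.42-fold difference. Probe ILMN_2777474 gave signals of 864, 643 and 685 against 301, 323 and 359, and log2 values of 9.28, 9.27 and 9.20 against 8.24, 8.33 and 8.27. Within each group these values lay close together (SD 0.04 and 0.05), and the difference was 0.97 ± 0.09, or 1.96-fold.

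H2-Bl, the other class I gene of the T region in the set, was higher by a similar amount. Its single probe gave signals of 2371, 1824 and 1916 on the overexpression arrays and 718, 769 and 889 on the control arrays. Normalized log2 values were 10.85, 10.84 and 10.80 against 9.65, 9.67 and 9.71. The groups were far apart relative to their SDs of 0.03 and 0.03, and the difference was 1.16 ± 0.09 (SE, n = 3 per group), or 2.23-fold. Class I genes are near-copies of each other, and the probe sequences were not used here, so how far the H2-T23 and H2-Bl probes also read other class I transcripts was not tested.

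H2-Ab1, the class II beta chain gene, went from background in control cells to a low level in overexpressing cells. Its 3 probes were above background on all 3 overexpression arrays and on none of the control arrays, so they entered the comparison only through the overexpression arrays and had to differ. Probe ILMN_1226525 gave signals of 243, 196 and 213 against 105, 109 and 126, and log2 values of 7.08, 7.19 and 7.18 against 6.07, 6.12 and 6.25. As the control level is a bound, the probe was at least 1.91-fold higher (mean log2 of 7.15 and 6.15), taking for each control array the higher of the lowest value above background and the probe's own value. Probe ILMN_2631423 gave signals of 164, 139 and 150 against 96.2, 86.3 and 101, and was at least 1.10-fold higher (mean log2 of 6.35 and 5.66). Probe ILMN_2913716 gave 167, 151 and 173 against 103, 102 and 106, and was at least 1.25-fold higher (mean log2 of 6.54 and 5.93). The groups did not overlap for any of the 3 probes, in signal or after normalization. The brighter background of the overexpression arrays moves with these dim signals, and its part in the result was not tested. These bounds apply after the background correction. Without the correction the log2 differences of the 3 probes were 0.64, 0.38 and 0.35, and in the authors' normalized values matched to their arrays they were 0.35, 0.18 and 0.18.

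The classical class I genes H2-K1 and H2-D1 lay close to control. H2-K1 had a dim probe, above background on 3 overexpression and 2 control arrays, with signals of 200, 154 and 145 against 120, 109 and 146. Its log2 values of 6.67, 6.64 and 6.32 against 6.41, 6.14 and 6.58 overlapped between the groups, with a difference of 0.17 (95% confidence interval -0.16 to 0.50). Probe ILMN_2462745 of H2-D1 gave signals of 773, 669 and 703 against 550, 576 and 594. The signals did not overlap, but the log2 values did, at 9.10, 9.33 and 9.25 against 9.24, 9.24 and 9.08, with a difference of 0.04 (-0.19 to 0.28). Probe ILMN_2476267 gave log2 values of 7.79, 8.22 and 8.29 against 8.22, 8.27 and 8.19. Overexpression array 1 was the low value of this probe, and the difference was -0.13 (-0.44 to 0.19). The intervals of the H2-D1 probes end below the differences found for H2-T23 and H2-Bl, as does that of the dim H2-K1 probe. The set was chosen on such differences, so this is a description and no test. In total RNA of a culture, more cells with a transcript and more transcript per cell cannot be told apart.

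No B2m or Tapbp probe was past the threshold. B2m, the partner of class I heavy chains, had overlapping signals with both probes, of 459, 324 and 319 against 333, 320 and 422 for ILMN_1216746. The other probe, ILMN_2739999, gave 452, 315 and 354 against 330, 346 and 414. After normalization both were lower in overexpressing cells without overlap. For ILMN_1216746 the log2 values were 8.24, 8.13 and 7.92 against 8.42, 8.31 and 8.53, a difference of -0.33 (95% confidence interval -0.59 to -0.06). For ILMN_2739999 they were 8.21, 8.09 and 8.10 against 8.40, 8.44 and 8.51, a difference of -0.32 (-0.53 to -0.11). Among all tested probes 14.0% were lower without overlap. With median scaling in place of quantile normalization the B2m differences were -0.17 and -0.17. Tapbp gave signals of 219, 162 and 173 against 160, 137 and 171. Its log2 values of 6.87, 6.77 and 6.74 against 7.04, 6.71 and 6.91 overlapped, with a difference of -0.09 (-0.35 to 0.16), which was 0.04 with median scaling.

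**Figure D1:**
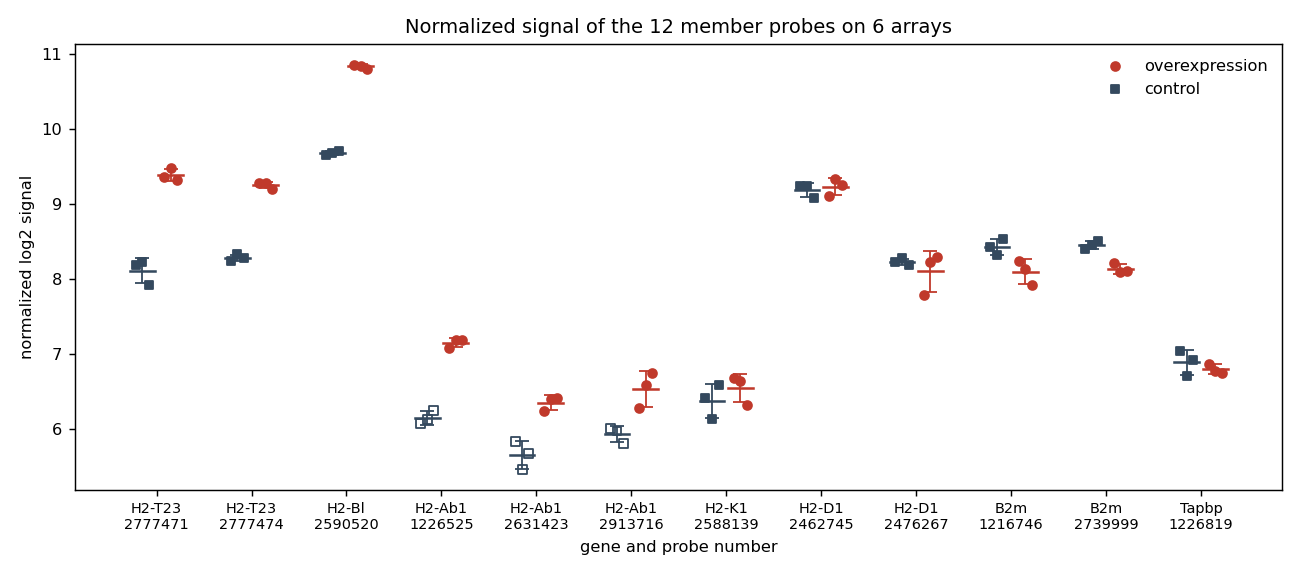
Normalized log2 signal of the 12 probes, 3 overexpression arrays (red circles) and 3 control arrays (dark squares) each, with the group mean and SD as lines, and hollow squares where no array of the group was above background. Both H2-T23 probes and the H2-Bl probe sit about 1 log2 unit above control, the H2-Ab1 probes rise from background, and H2-K1, H2-D1 and Tapbp overlap between groups.

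In the fit across all 14604 tested probes, an adjusted p of 0.01 was passed by 5 of the 12 probes, all higher in overexpressing cells, namely the 2 of H2-T23, the H2-Bl probe and the H2-Ab1 probes ILMN_1226525 and ILMN_2631423. Among all tested probes 1.4% passed as higher and 2.1% as lower. Normalized values did not overlap between the groups for 6 of the 12 probes with higher values, against 14.5% of all tested probes. Since the set was chosen on this contrast, these shares describe the choice and carry no test. Both counts also include H2-Ab1 probes, which entered only through the overexpression arrays and had to differ. The call of ILMN_2631423 was lost when any 1 of the 6 arrays was left out (log2 differences of 0.60 to 0.79). It was also lost in the paired fit, which blocks on the replicate number and left 4 of the 12 probes higher, against 1.8% of all probes higher and 2.7% lower. Its call did not hold either without background correction, with an offset of 50, without the detection filter, with trended robust variances or in the authors' normalized values matched to their arrays. The other 4 calls were kept in each of these fits. With detection required on all 6 arrays, the H2-Ab1 probes were not tested and 3 calls were left. As the members were chosen on this contrast, a kept call is no independent support.

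**Figure D2:**
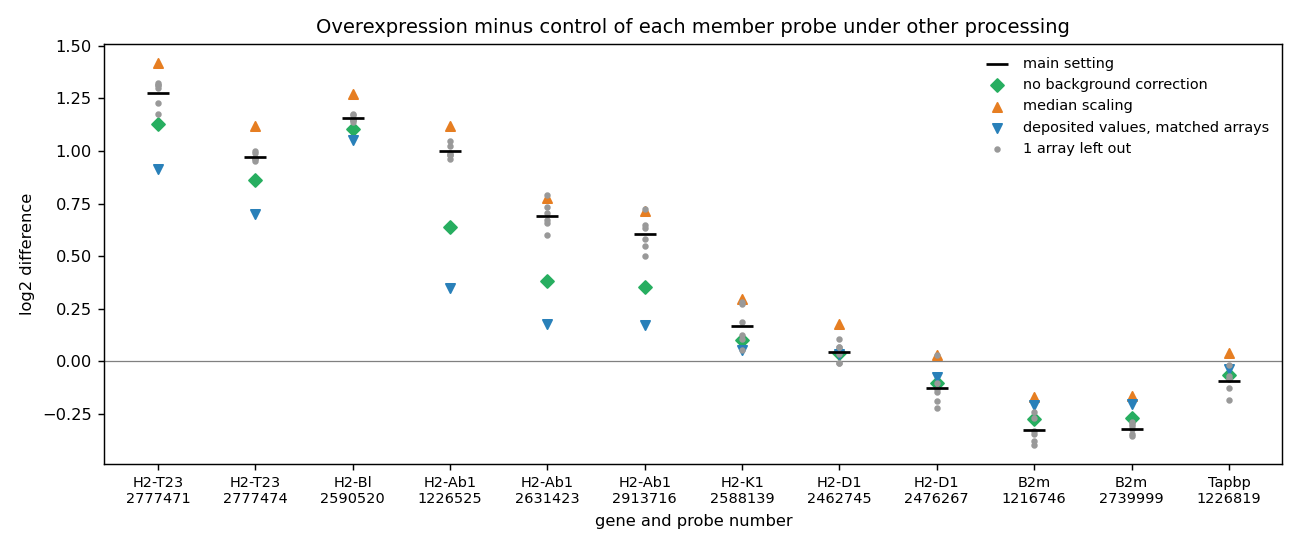
Log2 difference (overexpression minus control) of each of the 12 probes under the main setting (black bars), median scaling, no background correction and the authors' normalized values matched to their arrays, with 1 gray point per array left out. The authors' values under the deposited sample names are not drawn. In the settings drawn H2-Bl lies between 1.05 and 1.27 and the H2-T23 probes between 0.70 and 1.42, and the H2-Ab1 differences are 0.35, 0.18 and 0.18 in the authors' matched values.

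The other genes of antigen presentation were taken from lists of the pathway, using for each gene the brightest of its tested probes. Over all 8529 tested genes 1.5% passed as higher and 2.5% as lower, with a median difference of -0.002. Of 33 class I and class I-like genes 11 were tested, and the 2 that passed, H2-Bl and H2-T23, belong to the chosen set. The other 9 had differences of -0.32 to 0.42, and the list's median was 0.17. Without the chosen genes 0 of 6 passed in limma (3 higher and 0 lower at an unadjusted p under 0.05). The share of all tested genes at that unadjusted cutoff was not taken. Unadjusted counts, here and elsewhere, therefore have no rate to be set against. The neonatal Fc receptor gene Fcgrt was the nearest of them to the threshold, with 0.42 ± 0.11 (SE, n = 3 per group; limma adjusted p = 0.0450). H2-Q1 and H2-Q7, class I genes of the Q region, gave -0.25 ± 0.12 and 0.08 ± 0.14, and the non-classical gene H2-M3 had a probe above background on 1 of the 6 arrays only and was not tested.

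Of the class II genes, H2-Eb1 rose together with H2-Ab1. H2-Eb1 encodes the beta chain of the other mouse class II molecule, and its probe was above background on all 6 arrays. Overexpression arrays gave signals of 432, 373 and 360, and control arrays 182, 199 and 243. The log2 values of 8.13, 8.38 and 8.13 lay above those of 7.31, 7.49 and 7.59, and they differed by 0.75 ± 0.12 (SE with n = 3 per group, adjusted p = 0.00565 in limma). The call did not hold without any 1 of the 6 arrays, with adjusted p from 0.0132 to 0.0289 and differences of 0.66 to 0.82. Of 14 genes for class II chains and class II loading 7 were tested, 2 passed as higher and the median was 0.10. Without H2-Ab1, which belongs to the chosen set, 1 of 6 passed and the median was 0.08. The remaining 5 had differences of -0.09 to 0.43, with 0.06 ± 0.19 for H2-DMa and -0.02 ± 0.13 for H2-DMb2, subunits of the class II peptide exchange factor. The invariant chain gene Cd74, whose product escorts class II molecules, was above background on 0 overexpression and 2 control arrays and was not tested. No probe was named H2-Aa, the alpha chain gene that pairs with H2-Ab1.

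None of the tested genes for peptide supply, transport and loading passed the threshold. Of 25 listed genes 16 were tested with limma, and their differences ran from -0.25 to 0.35, with a median of -0.12. At an unadjusted p under 0.05, 3 were higher and 1 was lower. The proteasome activator genes Psme1 and Psme2 gave -0.19 ± 0.09 (SE, n = 3 per group; adjusted p = 0.223) and -0.24 ± 0.10 (0.214), and the immunoproteasome subunit gene Psmb10 gave -0.17 ± 0.10 (0.387). The chaperone genes of class I folding gave -0.23 ± 0.15 for Calr (0.401) and -0.16 ± 0.10 for Pdia3 (0.361). Psmb8, another immunoproteasome subunit gene, was above background on 0 overexpression and 2 control arrays, with signals of 136, 89.8 and 106 against 124, 143 and 120. Psmb9 was above background on 1 array of each group. Neither was tested. No probe was named Erap1, Canx or Tapbpl.

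**Figure D3:**
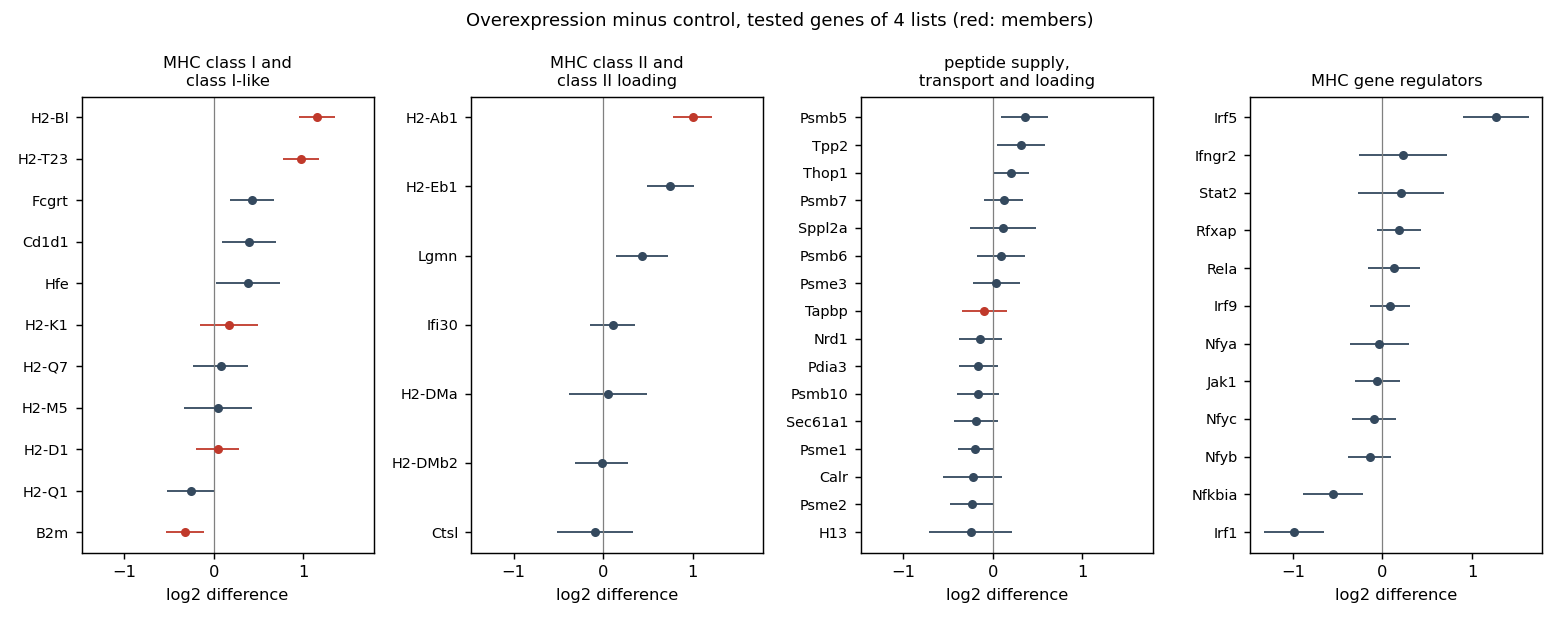
Log2 difference (overexpression minus control) with its 95% confidence interval for every tested gene of 4 lists, with the genes of the chosen set in red. In the class I and class II lists H2-Bl, H2-T23, H2-Ab1 and H2-Eb1 stand above the rest, the peptide supply genes lie between -0.25 and 0.35, and among regulators Irf5 and Irf1 lie at opposite ends.

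Irf1 and Irf5, transcription factor genes of the interferon system, moved in opposite directions. Of 26 listed regulators of MHC genes 12 were tested, 1 rose and 1 fell, with a median of 0.02. Irf1, an interferon-induced activator of class I genes, fell. Its brightest probe went from log2 values of 11.15, 11.10 and 11.20 in control cells to 10.09, 9.90 and 10.50 in overexpressing cells. This was a change of -0.99 ± 0.15 (SE with n = 3 per group, adjusted p = 0.00470 in limma). Its other 3 probes differed by -1.02, -1.16 and -1.12, and overexpression array 3 was the highest of its group on all 4. The call was lost without overexpression array 1 (adjusted p = 0.0243) or 2 (0.0137) and without control array 1 (0.0257), 2 (0.0138) or 3 (0.0205). Irf5, a factor of innate immune signalling, was at background in all 3 controls, with signals of 158, 154 and 169 against 80.1, 70.6 and 88.2. It was at least 1.21-fold higher (limma adjusted p = 0.00232), with log2 values of 6.15, 6.65 and 6.69 against 5.33, 5.01 and 5.34. Like H2-Ab1, Irf5 entered the comparison only through the overexpression arrays and had to differ, so its p-value and its place in the count of regulators carry little weight. The call was lost without control array 1 (0.0112) and in the authors' normalized values matched to their arrays, where the difference was 0.35 (0.0104). No probe was named Nlrc5 or Ciita, the master regulators of class I and class II genes, and none Rfx5.

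Of 24 listed interferon-induced genes outside antigen presentation 8 were tested with limma. None of these passed as higher and 1 passed as lower (1 higher and 3 lower at an unadjusted p under 0.05), and the median was -0.20. The guanylate-binding protein gene Gbp2 fell to background, with signals of 86.7, 85.3 and 77.7 against 216, 231 and 205, at least 2.67-fold lower on the background-corrected scale (limma adjusted p = 4.81e-05). Gbp2 entered the comparison only through the control arrays and had to differ, so the p-value describes it and is no independent test. The authors' normalized values, matched to their arrays, gave Gbp2 a log2 difference of -0.83. The probes of Irgm1, an immunity-related GTPase gene, disagreed. The brightest gave 0.30 ± 0.09 (SE, n = 3 per group; limma adjusted p = 0.0903). The dimmer one, not above background in overexpressing cells, was at least 2.05-fold lower on the background-corrected scale. Its uncorrected signals were 117, 125 and 108 on the overexpression arrays against 173, 196 and 168 on the control arrays. This dimmer probe also entered only through the control arrays, so no p-value is given for it.

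Apart from B2m, the genes of the set lie on chromosome 17, and the genes between Tapbp and H2-Bl in RefSeq order were mostly not past the threshold. Of 68 tested genes in this stretch, 6 belong to the set. Of the other 62, 2 rose and 0 fell in limma, against 1.5% and 2.5% of all tested genes, and their median difference was -0.02. At an unadjusted p under 0.05 in limma, 2 were higher and 7 lower, and no share of all genes was taken at that cutoff. The 2 past the adjusted threshold were H2-Eb1, the next tested gene after H2-Ab1, and Apom. H2-T23 and H2-Bl were likewise next to each other in the order of tested genes. Apom encodes the lipocalin apolipoprotein M, and its brightest probe gave signals of 1266, 1007 and 1061 against 459, 522 and 585. For Apom the log2 difference amounted to 0.88 ± 0.09 (SE with n = 3 per group, adjusted p = 0.000907 in limma), and its other probe gave 1.01 ± 0.14 (0.00320). Genes of other function listed from the MHC region and its flanks gave 1 call in 48, that of Ppp1r11, a phosphatase inhibitor gene, which fell by 0.64 ± 0.09 (adjusted p = 0.00362). That call was lost without any 1 of the 6 arrays (0.0110 to 0.0219) and with median scaling (0.0168).

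**Figure D4:**
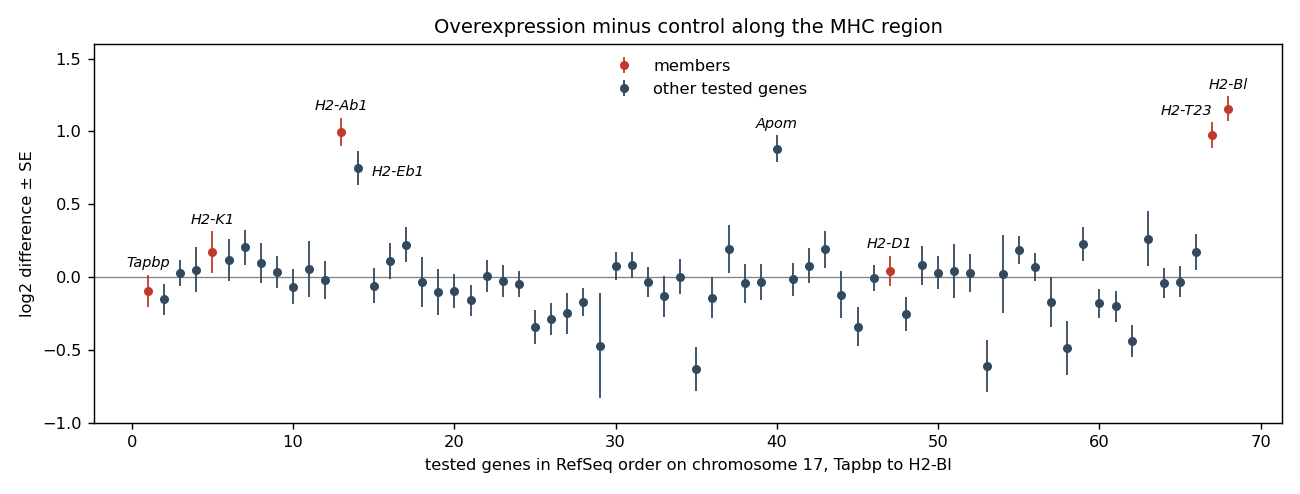
Log2 difference (overexpression minus control, bars ± SE) of the 68 tested genes from Tapbp to H2-Bl, in RefSeq order on chromosome 17 and not to scale in distance. H2-Ab1 with H2-Eb1, Apom, and H2-T23 with H2-Bl stand at 0.75 to 1.16, while H2-K1 and H2-D1 lie with the remaining genes around 0.

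The profile most like that of the brightest H2-T23 probe was also that of Apom. Likeness was the root mean square distance between log2 values centred on each probe's mean over the 6 arrays, over 8528 other genes, and it was 0.06 for Apom. It was 0.07 for the growth factor gene Vegfa, 0.07 for the kinase gene Tnik, 0.08 for H2-Ab1 and 0.08 for the peroxisome biogenesis gene Pex3. H2-Bl ranked 8 and H2-Eb1 ranked 50, with distances of 0.10 and 0.15. H2-K1, H2-D1, Tapbp and B2m ranked 2611, 3792, 6112 and 7623. These ranks are read from the same 6 arrays as the differences above. The distance is not scaled, so it largely follows the size of the log2 difference, 0.97 for this H2-T23 probe and 0.88 for Apom. The ranks are thus no separate evidence of a shared profile.

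Markers of other cell types could be checked only in part, since most leukocyte markers had no named probe. Of 13 leukocyte markers 3 had a named probe and 1, Laptm5, was tested (difference -0.16 ± 0.13, SE, n = 3 per group; limma adjusted p = 0.545). The defining markers Ptprc and Itgam had no named probe. The T cell marker Cd3e was above background on 1 or 2 overexpression arrays, depending on the probe, and Cd14, a monocyte marker, on 1, and both on 0 control arrays. The dim Cd14 signals were 155, 105 and 129 on the overexpression arrays against 70.4, 72.7 and 78.7 on the control arrays. They did not overlap, also after normalization, where the log2 difference was 0.84. For the Cd3e probes it was 0.22 and 0.08, with overlapping log2 values. The summed level of the 3 was 4113 to 5503 in overexpressing and 4721 to 5697 in control cells. As linear values are summed, this sum is almost wholly Laptm5 (mean log2 of 12.18 and 12.33) and says little of Cd3e and Cd14. Of 12 feeder-type fibroblast markers 4 were tested, Fbln2 was higher and Acta2 was lower, with sums of 2454 to 2701 and 2179 to 2702. Of 5 endothelial markers 2 were tested and 0 passed in limma, also at an unadjusted p under 0.05 (sums of 647 to 827 and 693 to 747), and of 8 trophoblast markers 4 were tested and Krt8 and Krt18 were lower (sums of 4733 to 5268 and 4492 to 4926). Acta2 and Krt18 were above background on no overexpression array and entered only through the control arrays. The trophoblast sum is mainly Tfap2c (mean log2 of 12.22 in overexpressing and 11.98 in control cells). It therefore does not show the lower Krt8 (6.91 and 8.50) and Krt18 (5.28 and 7.08). The fibroblast sum is likewise mainly Vim (10.91 and 10.77). The part of these cell types in the results was not tested.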

How the data were processed

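Total RNA of 3 overexpression and 3 control samples was hybridised to Illumina Mouse WG-6 BeadChips. The authors deposited the average bead signal intensity per probe on a linear scale, neither background-subtracted nor normalized, with a detection p-value beside each. For the scanner software no name was given. Normalized log2 values were deposited as well for 15944 probes, made by the authors with lumi (version not given) according to the submitters' processing notes. Their transformation is not stated and their columns do not follow the sample names, so they served only as alternatives, under the deposited names and with each column given to the array it matched best.

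The neqc function of limma 3.58.1 (R 4.3.3) corrected the intensities by normexp with an offset of 16, inferring the background from the detection values, and then applied quantile normalization and log2. A probe was tested when it was above background (detection p under 0.01) on 3 or more of 6 arrays, which left 14604, with lmFit, eBayes and Benjamini-Hochberg adjustment over all of them at 0.01, the study's threshold. The code was tested on simulated data. The number of arrays limits the precision. Leaving out an array kept the same tested probes. Probes were named from the platform annotation, with symbols updated through RefSeq GRCm38.p6 (13765 of 13778 matched), whose order along the chromosome was also used.

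The labels number the replicates 1 to 3 in both groups. Deviations from the group means correlated between same-numbered arrays at r = 0.12, 0.39 and 0.32, so the fit with the replicate number as a block is given where it changed a call. Genes named were the 9 members, list genes past the threshold, a fixed set of central pathway genes and the 5 profiles nearest to H2-T23. Irgm1, Fcgrt, Laptm5, Cd3e, Cd14, Fbln2, Acta2, Krt8, Krt18, H2-Q1, H2-Q7, H2-DMa and H2-DMb2 were named after their values were seen. The members and the lists were chosen with earlier results of these data known. Alternatives changed the background correction, normalization, detection filter, variance prior, threshold, probe summary, replicate block and arrays used.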

Additional observations from a re-analysis of the deposited data

How the results depend on the processing

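Counts below are probes or genes past the threshold, higher or lower in overexpressing cells. Of the member probes 5 were higher, against 3 when only probes above background on all 6 arrays were tested, which leaves H2-Ab1 out, and 4 without any 1 array. With the replicate number as a block 4 were higher, and the block changed no other call of a member or of a listed gene's brightest probe (Irf1 gained calls for its 2 dimmest probes). Over all tested probes the block gave 263 higher and 394 lower. In the antigen presentation lists, chosen genes left out, 2 were higher and 1 was lower. This became 0 and 0 without the detection filter, where 45281 probes share the adjustment, 1 higher when detection on all 6 arrays was required, which leaves out Irf5, and 0 to 1 higher and 0 to 1 lower with 1 array left out. The single lower gene among the region's neighbours, Ppp1r11, was 0 with median scaling and 0 in each of the fits with 1 array left out. Under the deposited sample names of the normalized table, where 2 columns stand in the other group, the counts were 0 for the members, 0 and 0 for the lists, 0 for the neighbours and 0 higher and 0 lower over all probes. The log2 differences under these names were 0.37 and 0.24 for H2-T23, 0.35 for H2-Bl and 0.09, 0.07 and 0.02 for H2-Ab1. With the columns matched to their arrays 4 member probes were higher. Over all tested probes 204 were higher and 307 lower. Median scaling gave 331 higher and 210 lower, so 61.2% of calls were higher, and moved the median gene from -0.002 to 0.11. No detection filter gave 50 and 98, trended robust variances 362 and 495, a threshold of 0.05 gave 588 and 667, and leaving out 1 array 63 to 117 higher and 130 to 220 lower. H2-D1 and Tapbp differences changed sign with scaling or an array left out, at -0.009 to 0.18 and -0.22 to 0.03 for the H2-D1 probes and -0.18 to 0.04 for Tapbp. For dim probes such as those of H2-Ab1 the signal over background limits how well a fold is known. The cause of these shifts was not tested where no construction is named.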
